A study of Homo sapiens with 4 samples.

Results

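The regions described here are CUT&RUN peaks that lie beside the large undetermined stretches of the human genome assembly. CUT&RUN uses an antibody to direct a nuclease to a chromatin protein or mark, and the released fragments are sequenced. A peak was taken when it lay on chromosomes 1 to 22 or X within 2 Mb of a run of undetermined bases of at least 1 Mb in the hg19 sequence. There were 25 such gaps, with at least 1 on each of the 23 chromosomes. They were flanked by 269 of the 6878 peaks of the 4 deposited lists on these chromosomes. The signal of a peak was not used to choose it.

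MV4;11 is an established human leukemia cell line that carries a rearrangement of the MLL1 gene. The cells received 5 µM AS-99, a small-molecule inhibitor of the histone methyltransferase ASH1L, or 0.25% DMSO, the vehicle, for 4 days. ASH1L or dimethylated lysine 36 of histone H3 (H3K36me2), the mark that ASH1L deposits, was then profiled. This gave 4 groups with 1 library each, named by treatment and antibody and always listed with both ASH1L libraries first and DMSO before AS-99. All values therefore describe 4 libraries of 1 cell line, and no difference between them has a replicate check. Library depth ranged from 13208636 fragments after filtering in AS-99 H3K36me2 to 19635489 in DMSO ASH1L.

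Large gaps of this assembly stand for centromeres, blocks of heterochromatin and the short arms of the acrocentric chromosomes, which consist of tandem repeats that could not be assembled. Their edges hold fragments of these repeats. Alpha satellite is built from repeated units, some of which carry the box bound by the centromere protein CENP-B. Other satellites of the same neighbourhoods consist of diverged copies of the pentamer GGAAT, and ribosomal RNA genes stand in tandem on the acrocentric short arms. The assembly holds few copies of arrays that a cell carries in large number, so reads from many copies can be placed on the few sequences that were assembled.

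The sequences with the highest signal in all 4 libraries fell into these classes, and examples are shown because the results below are ordered by them. All are from hg19/GRCh37, plus strand, 5′ to 3′. In each of the first 3 pairs, the first line has the length of 1 alpha-satellite unit and the second line is the sequence that follows it, with capitals for bases equal to the base 1 unit before. The stretches were chosen for a high number of such bases.
Chromosome 7, first unit, chr7:61968711-61968881: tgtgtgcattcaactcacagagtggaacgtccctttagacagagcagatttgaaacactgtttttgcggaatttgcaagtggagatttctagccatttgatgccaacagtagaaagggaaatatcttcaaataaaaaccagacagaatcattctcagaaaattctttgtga
Chromosome 7, next 59 bases, chr7:61968882-61968940: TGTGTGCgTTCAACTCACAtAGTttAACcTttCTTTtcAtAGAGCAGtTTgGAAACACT
Chromosome 1, first unit, chr1:121484772-121484942: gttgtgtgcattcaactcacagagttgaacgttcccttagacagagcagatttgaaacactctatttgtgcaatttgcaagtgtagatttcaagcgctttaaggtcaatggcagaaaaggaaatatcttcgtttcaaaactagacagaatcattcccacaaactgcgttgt
Chromosome 1, next 129 bases, chr1:121484943-121485071: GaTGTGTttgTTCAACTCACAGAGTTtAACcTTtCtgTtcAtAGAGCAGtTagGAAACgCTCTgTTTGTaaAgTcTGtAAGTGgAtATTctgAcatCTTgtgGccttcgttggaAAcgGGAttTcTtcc
Chromosome 6, first unit, chr6:58777920-58778090: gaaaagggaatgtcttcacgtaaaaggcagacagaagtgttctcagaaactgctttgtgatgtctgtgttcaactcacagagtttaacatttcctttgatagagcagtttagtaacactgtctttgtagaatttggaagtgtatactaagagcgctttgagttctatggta
Chromosome 6, next 129 bases, chr6:58778091-58778219: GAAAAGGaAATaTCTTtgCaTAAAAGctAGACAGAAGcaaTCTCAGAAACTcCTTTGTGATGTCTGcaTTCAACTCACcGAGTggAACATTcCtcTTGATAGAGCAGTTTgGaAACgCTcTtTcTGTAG
In the second lines, 47 of 59, 77 of 129 and 104 of 129 bases were equal to the base 1 unit before.

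The next sequences surround peak summits of DMSO ASH1L on chromosomes 16 and 10, with the pentamer GGAAT or its reverse complement ATTCC in capitals.
Chromosome 16, 200 bases, chr16:46391926-46392125: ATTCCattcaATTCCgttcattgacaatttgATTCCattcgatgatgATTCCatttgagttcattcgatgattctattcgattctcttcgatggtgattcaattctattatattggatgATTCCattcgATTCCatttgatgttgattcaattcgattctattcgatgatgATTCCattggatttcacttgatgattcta
Chromosome 10, 200 bases, chr10:42385476-42385675: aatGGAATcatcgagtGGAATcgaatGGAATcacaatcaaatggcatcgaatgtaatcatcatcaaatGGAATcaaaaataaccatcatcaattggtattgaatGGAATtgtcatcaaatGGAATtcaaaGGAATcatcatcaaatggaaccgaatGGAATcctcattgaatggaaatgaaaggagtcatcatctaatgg
The pentamer covered 35 bases on chromosome 16, always as ATTCC, and 40 bases on chromosome 10, always as GGAAT.

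The last sequence comes from the edge of the short arm of chromosome 21. It surrounds a summit of DMSO ASH1L, with its 24 CpG dinucleotides in capitals.
Chromosome 21, 200 bases, chr21:9827178-9827377: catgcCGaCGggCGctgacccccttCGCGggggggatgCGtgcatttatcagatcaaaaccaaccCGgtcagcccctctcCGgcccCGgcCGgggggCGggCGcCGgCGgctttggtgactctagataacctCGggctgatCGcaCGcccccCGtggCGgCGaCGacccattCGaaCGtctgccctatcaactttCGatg

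The lists held 96 of 3073 peaks beside large gaps in DMSO ASH1L, 74 of 1812 in AS-99 ASH1L, 56 of 1359 in DMSO H3K36me2 and 43 of 634 in AS-99 H3K36me2. These were 3.12% (95% exact binomial interval 2.54 to 3.80%), 4.08% (3.22 to 5.10%), 4.12% (3.13 to 5.32%) and 6.78% (4.95 to 9.03%) of the lists. The same windows held 80.4 Mb, or 2.83%, of the determined sequence, so that the shares were 1.10, 1.44, 1.45 and 2.39 times that of the sequence. Intervals of counts, shares and single ratios cover counting error only, since each group had 1 library. Those of medians cover the spread among pairs of peaks, which are not replicates and partly lie close together. Copies of 1 molecule could not be told apart beyond the duplicate limit, so fragment counts may include such copies.

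Fewer peaks were called in the AS-99 lists, and for H3K36me2 the gap-flanking peaks made up more of what was left. For ASH1L, 74 against 96 gave a ratio of 0.77 (exact conditional 95% interval 0.56 to 1.05), whereas 1738 against 2977 other peaks gave 0.58 (0.55 to 0.62). For H3K36me2, 43 against 56 gave 0.77 (0.50 to 1.16), whereas 591 against 1303 other peaks gave 0.45 (0.41 to 0.50). Both intervals of the gap-flanking peaks included 1, so a change in their own number was not detectable. At −log10 p values from 10 up, the H3K36me2 ratio lay on the other side of 1, at 1.18 (0.72 to 1.94). Their share of the list was higher in AS-99 by 2.66 percentage points for H3K36me2 (Newcombe 95% interval 0.58 to 5.08). That interval included 0 without the regions of all 4 lists, at 0.70 (−0.78 to 2.57), and with gaps of at least 50 kb, at 0.87 (−2.66 to 4.61). For ASH1L the difference of 0.96 points had an interval that included 0 (−0.10 to 2.12), although with windows of 5 Mb it did not, at 1.68 (0.13 to 3.31). A difference between the antibodies in this respect was not tested. The smaller AS-99 libraries moved with these counts, and per fragment after filtering the ratios of gap-flanking peaks were 0.98 for ASH1L and 0.91 for H3K36me2.

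The chromosomes contributed unequally. Chromosome 16 held 48 of the 269 peaks, with 13, 12, 12 and 11 in the 4 libraries in that order, and 44 of them lay after the gap, on the long arm. Chromosome 8 followed with 37 peaks (12, 10, 9 and 6) on both sides of its gap. Chromosome 10 held 24 peaks (6, 7, 6 and 5), and 20 of these lay after the gap. The counts of chromosomes 16 and 10 thus stayed close across libraries, whereas the full lists ran from 3073 to 634 peaks. On chromosomes 17 and 20 they did not. Chromosome 17 had 23 peaks, of which 13, 7, 3 and 0 were in the 4 libraries in the same order, and chromosome 20 had 22, with 10, 5, 5 and 2. Chromosome 1 held 17 peaks (7, 4, 3 and 3). No library had a peak beside the gaps of chromosomes 9 and 11, although 3.22 and 3.69 Mb of determined sequence lay within their windows, against 3.85 Mb on chromosome 16.

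**Figure D1:**
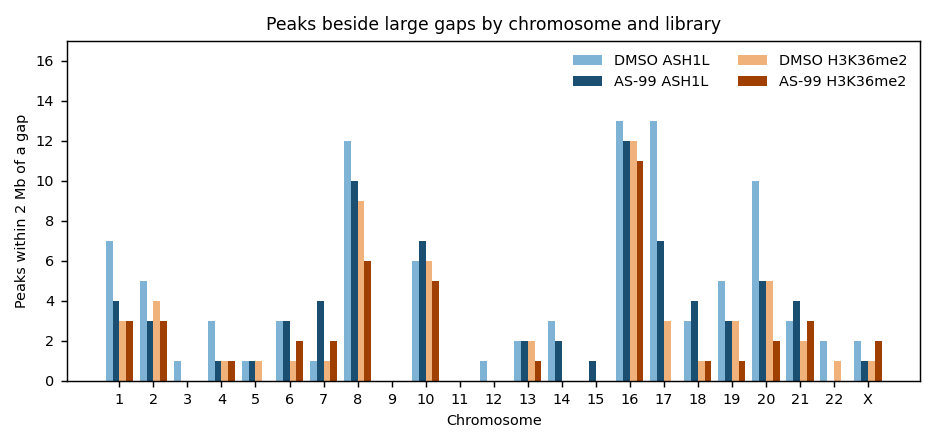
Number of peaks within 2 Mb of a large gap (vertical axis) on each chromosome (horizontal axis), with 1 bar for each of the 4 libraries. Chromosome 16 has 11 to 13 peaks in every library, chromosome 17 runs from 13 in DMSO ASH1L to 0 in AS-99 H3K36me2, and chromosomes 9 and 11 have none.

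The pileup of a peak, the number of fragments that cover its summit, was far higher beside large gaps than elsewhere. The 10 highest pileups of each list all lay beside a large gap, as did 33, 30, 22 and 27 of the highest 50. At least 100 fragments were reached by 16, 17, 11 and 14 gap-flanking peaks but by 2, 1, 0 and 1 other peaks. Together the gap-flanking peaks held 22.6%, 32.7%, 27.4% and 53.1% of the summed pileup of the lists. Their medians were less far apart, at 21, 20, 25.5 and 49 fragments against 16, 15, 19 and 14 in the other peaks, so that a few tall peaks stood above many low ones.

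Fold enrichment, the pileup over the local or genome-wide background of the same library after 1 is added to each, did not follow the pileup. Its median was 5.04, 5.27, 4.74 and 6.19 beside gaps and 4.69, 4.91, 4.42 and 5.03 elsewhere. The highest fold enrichment lay outside the windows in every list (25.5 against 18.9 in DMSO ASH1L, for example). The background behind these ratios was itself high at the tallest peaks. With no control, the 10 kb local background includes the fragments of the peak itself, so it is not a separate measurement. On chromosome 7 it was 280.1 fragments in DMSO ASH1L beneath a pileup of 3598.

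When overlapping peaks of the 4 lists were merged, the 269 peaks formed 155 regions. A single list held 100 regions, 2 lists held 21, 3 lists held 9 and all 4 lists held 25. The share found in all 4 lists was 16.1%, against 22 of 5780 other regions (0.38%) and 0.792% of all regions, a difference of 15.7 percentage points (Newcombe 95% interval 10.8 to 22.3). Closeness to the large gap moved with this. Of 20 regions within 10 kb of a gap, 12 were in all 4 lists, as were 6 of 17 between 10 and 50 kb, 6 of 24 between 50 and 500 kb, 1 of 20 between 500 and 1000 kb and 0 of 74 between 1000 and 2000 kb. These distances are to gaps of at least 1 Mb. The regions of all 4 lists beyond 50 kb lay 49 to 20063 bp from a shorter gap, of at least 50 kb. The median scaled pileup, the pileup per 1000000 fragments after filtering, was 5.07 within 10 kb of a large gap and 0.98 beyond 1000 kb.

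**Figure D2:**
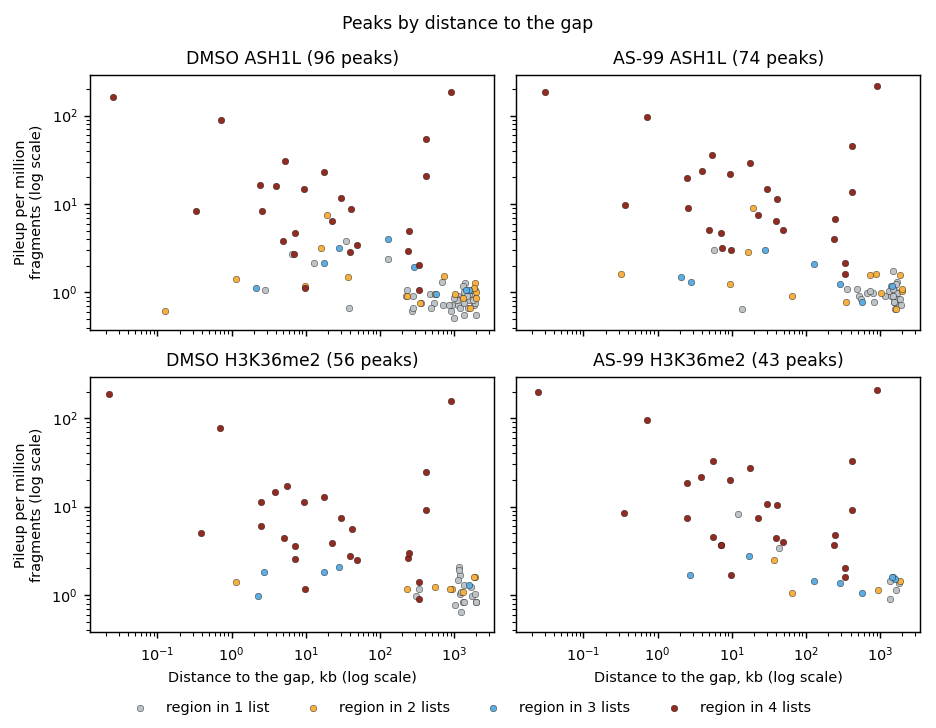
Scaled pileup (vertical axis, log scale) against the distance of the peak from the gap (horizontal axis, kb, log scale), 1 panel per library and 1 point per peak. Colours give the number of lists with a peak in the region. Regions in all 4 lists include the tallest peaks as well as low ones and lie mostly within 50 kb of the gap, while the peaks beyond 1000 kb are low and mostly in 1 list.

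At the outer limit of 2 Mb the peaks were ordinary. The farthest gap-flanking peak of DMSO ASH1L lay 1981612 bp from the gap of chromosome 6 with 17 fragments, and the first peak beyond the limit lay 2034562 bp from the gap of chromosome 7 with 12 fragments. In AS-99 ASH1L these were 1981601 bp with 16 fragments and 2015938 bp with 17 fragments. In DMSO H3K36me2 they were 1978776 bp with 13 fragments and 2061449 bp with 20 fragments, and in AS-99 H3K36me2 1854141 bp with 19 fragments and 2142532 bp with 14 fragments.

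The tallest regions were repeats with the period of alpha satellite, as in the first sequences above. The region at chr7:61968683-61969703 had a pileup of 3598 in DMSO ASH1L, 3316 in AS-99 ASH1L, 2466 in DMSO H3K36me2 and 2722 in AS-99 H3K36me2. It lay 914351 bp from the large gap but next to a shorter one, at 1525 bp. At chr1:121484429-121485412, which ended 22 bp before its gap, the pileups were 3154, 2876, 2909 and 2589 in the same order. At chr6:58776565-58779458, 708 bp before its gap, they were 1759, 1486, 1192 and 1258. In scaled pileup, DMSO H3K36me2 was the lowest library on chromosomes 7 and 6 and DMSO ASH1L the lowest on chromosome 1. The 3 regions held 3, 2 and 6 matches to the core of the CENP-B box, and 69.4%, 32.6% and 34.5% of their 31-base words occurred at least 2 times in the assembly. None overlapped an annotated gene.

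The ratio of scaled pileup of AS-99 to DMSO at these 3 regions was 1.18 (exact conditional 95% interval 1.12 to 1.23), 1.16 (1.11 to 1.22) and 1.08 (1.01 to 1.16) with ASH1L. With H3K36me2 it was 1.30 (1.23 to 1.38), 1.05 (0.996 to 1.11) and 1.25 (1.15 to 1.35). These 3 regions were higher per fragment in the AS-99 library, except on chromosome 1 with H3K36me2, where the interval included 1. Of the 6 periodic regions, the interval lay above 1 in 4 with ASH1L and in 2 with H3K36me2, against 5.22% and 14.4% of all matched pairs.

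Chromosome 21 carried the highest regions that were neither periodic nor rich in the pentamer. At chr21:9826760-9827567 the pileups were 1070 in DMSO ASH1L, 703 in AS-99 ASH1L, 388 in DMSO H3K36me2 and 433 in AS-99 H3K36me2. The neighbouring region chr21:9825487-9826377, which overlaps the annotated microRNA genes MIR3648 and MIR3687, had 403, 212, 142 and 121. Both genes are known to lie in the transcribed spacer of a ribosomal RNA gene. The 2 regions lay 415566 and 414293 bp from the large gap but next to a shorter one of at least 50 kb, at 1322 and 49 bp. Their GC contents were 65.0% and 81.3%, against medians of 37.2 to 42.9% in the gap-flanking peaks of the lists. Of their 31-base words, 86.1% and 82.0% also occurred on 1 unplaced contig of the assembly. DMSO ASH1L had the highest scaled pileup in both regions. The ASH1L ratio of AS-99 to DMSO was 0.84 (0.76 to 0.92) in the first and 0.67 (0.57 to 0.79) in the second, and these were the 2 regions of the 25 whose ASH1L interval lay below 1. Their H3K36me2 ratios were 1.32 (1.15 to 1.51) and 1.01 (0.78 to 1.29).

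Chromosome 16 gave 9 of the 25 regions, all within 50 kb after the gap and all rich in the pentamer, which covered 21.6 to 25.4% of their bases. At chr16:46391073-46392272 the pileups were 601 in DMSO ASH1L, 546 in AS-99 ASH1L, 265 in DMSO H3K36me2 and 427 in AS-99 H3K36me2. At chr16:46403463-46404060 they were 450, 449, 201 and 360, and at chr16:46389704-46390244 they were 317, 368, 228 and 282. In every one of the 9 regions DMSO H3K36me2 was the lowest library in scaled pileup and AS-99 ASH1L the highest.

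The remaining regions on chromosome 16 that ranked among the first 12 were chr16:46395163-46395672 with scaled pileups of 14.8, 22.04, 11.4 and 20.2, chr16:46388249-46389385 with 16.2, 19.5, 11.4 and 18.4, and chr16:46427203-46428182 with 8.71, 11.4, 5.52 and 10.4. On chromosome 10, chr10:42384953-42386015 had 11.6, 14.9, 7.44 and 10.8. The H3K36me2 ratio of AS-99 to DMSO ran from 1.46 to 2.11 over the 9 regions of chromosome 16, and its interval lay above 1 in each. The ASH1L ratio ran from 1.16 to 1.49, with 7 of 9 intervals above 1. Among all matched pairs, 14.4% with H3K36me2 and 5.22% with ASH1L had such an interval, and the 9 regions are close neighbours. The pentamer-rich regions of chromosome 10, of which there were 5, had H3K36me2 ratios of 1.38 to 1.77 and ASH1L ratios of 1.28 to 2.23.

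**Figure D3:**
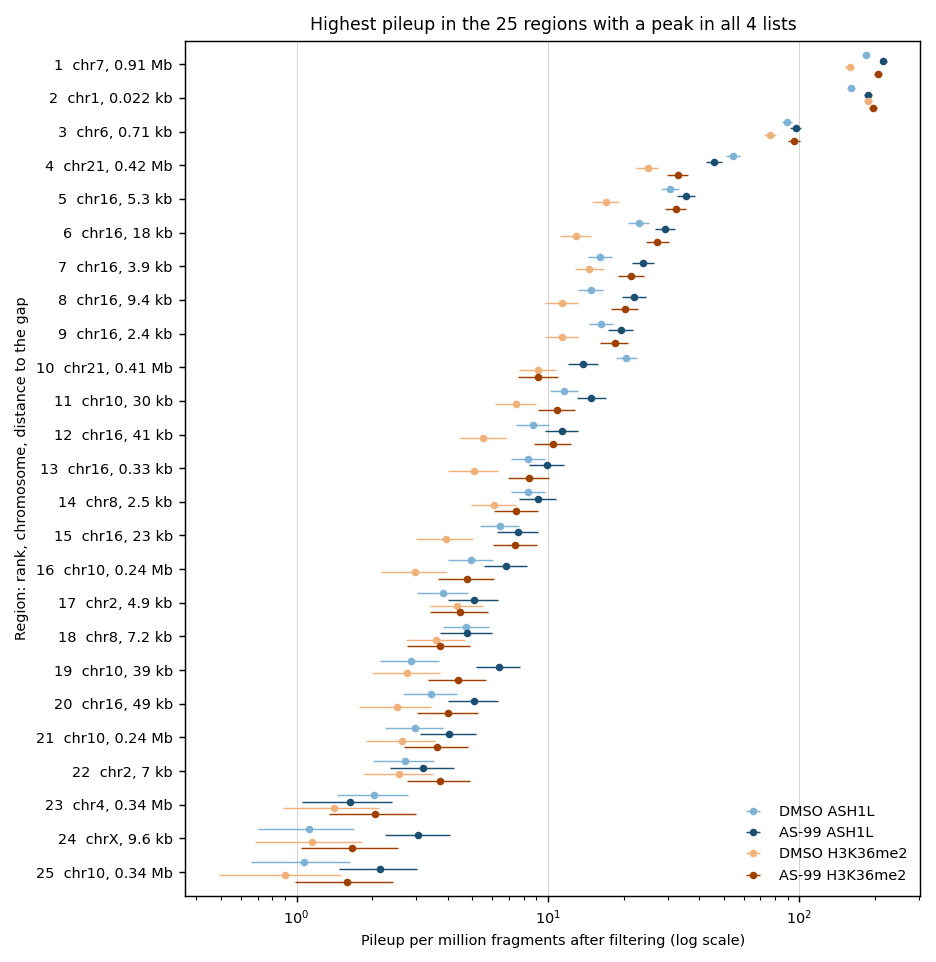
Highest scaled pileup (horizontal axis, log scale) in the 25 regions with a peak in all 4 lists, ordered by their mean (vertical axis: rank, chromosome and distance to the gap), with 1 point per library and exact Poisson 95% intervals. The values run from 216 in AS-99 ASH1L on chromosome 7 to 0.898 in DMSO H3K36me2 on chromosome 10, and DMSO H3K36me2 is the lowest library in 22 of the 25 regions.

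Over all 25 regions, 14 were pentamer-rich, 6 were periodic without being pentamer-rich and 5 were neither. The last group pooled 2 regions of chromosome 21, 2 of chromosome 8 and 1 of chromosome 4. The chromosome 8 regions held matches to the CENP-B core, and their periodicity scores of 44.7% and 41.1% lay below the limit of 50%. The limit of 20% of bases for this grouping was set after the values had been seen, and the pentamer itself raises the periodicity score. DMSO H3K36me2 was the lowest library in 22 regions and AS-99 ASH1L the highest in 20, including all 14 of the pentamer-rich group. The median H3K36me2 ratio of AS-99 to DMSO was 1.64 in the pentamer-rich group (range 1.38 to 2.11), 1.27 in the periodic group (1.02 to 1.45) and 1.23 in the others (1.01 to 1.45). The median ASH1L ratio was 1.34 (1.16 to 2.23), 1.18 (1.08 to 2.73) and 0.84 (0.67 to 1.09).

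Single regions were compared by the exact intervals of their ratios. The interval lay above 1 in 15 of 25 regions for ASH1L and in 15 of 25 for H3K36me2, and below 1 in 2 and 0. Among all matched pairs of peaks the shares above 1 were 5.22% for ASH1L and 14.4% for H3K36me2, and those below 1 were 1.04% and 1.69%. The tall regions have narrower intervals, so these shares also depend on height. The H3K36me2 ratio divided by the ASH1L ratio had an approximate 95% interval above 1 in 9 regions and below 1 in 1, on chromosome 1.

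**Figure D4:**
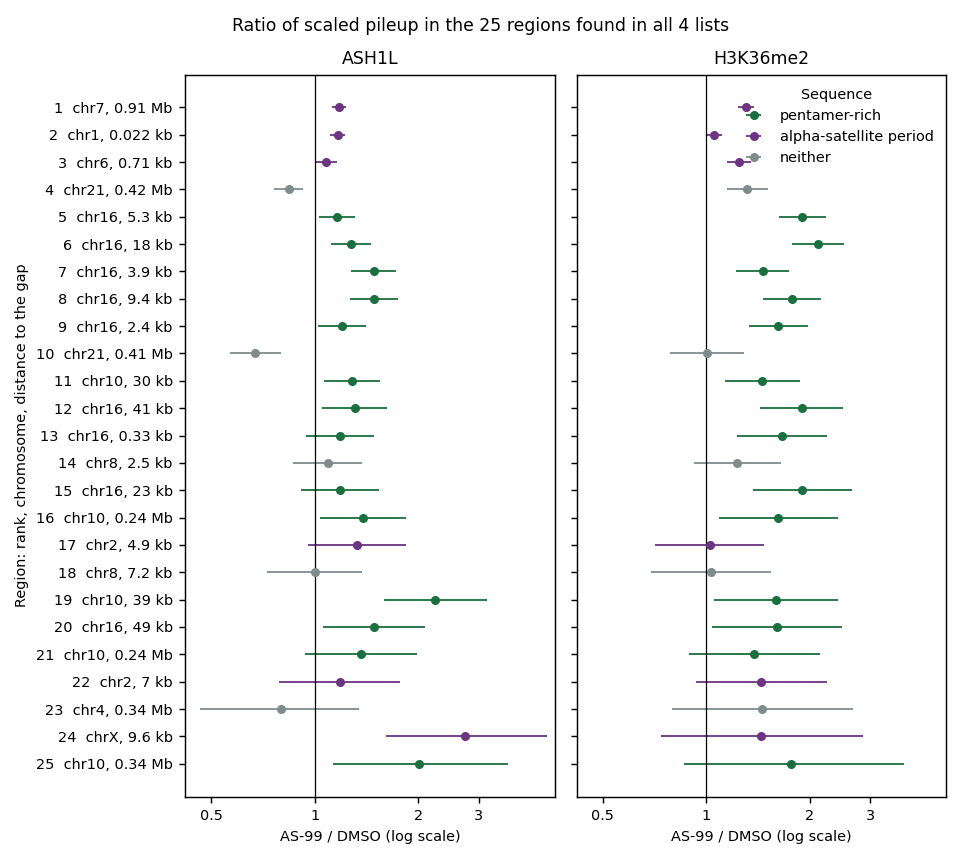
Ratio of AS-99 to DMSO in scaled pileup (horizontal axis, log scale) for ASH1L (left) and H3K36me2 (right) in the same 25 regions (vertical axis), with exact conditional 95% intervals and colours for the kind of sequence. Pentamer-rich regions lie between 1.38 and 2.11 with H3K36me2, and the regions of chromosome 21 lie at 0.84 and 0.67 with ASH1L.

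Peaks beside large gaps recurred more often between libraries than other peaks. Of the gap-flanking DMSO ASH1L peaks, 42 of 96 (43.8%) were overlapped by an AS-99 ASH1L peak, against 11.5% of other peaks and 12.5% of all, a difference of 32.3 percentage points (Newcombe 95% interval 22.7 to 42.3). For H3K36me2, 30 of 56 (53.6%) recurred, against 6.75% of others and 8.68% of all, a difference of 46.8 points (33.9 to 59.3). Height moved with recurrence. Among peaks under 30 fragments the shares were 13 of 62 against 11.0% for ASH1L, a difference of 9.96 points (1.59 to 21.7), and 8 of 31 against 5.97% for H3K36me2, a difference of 19.8 points (7.64 to 37.3).

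The antibodies also shared more peaks here. In DMSO, 34 of 56 gap-flanking H3K36me2 peaks (60.7%) shared bases with an ASH1L peak, against 16.7% of others and 18.5% of all, a difference of 44.1 points (30.8 to 55.9). In AS-99, 31 of 43 (72.1%) were, against 16.8% of others and 20.5% of all, a difference of 55.3 points (40.2 to 66.8). Among H3K36me2 peaks under 30 fragments the differences were 20.1 points in DMSO (5.63 to 37.8) and 37.02 points in AS-99 (14.8 to 58.1).

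**Figure D5:**
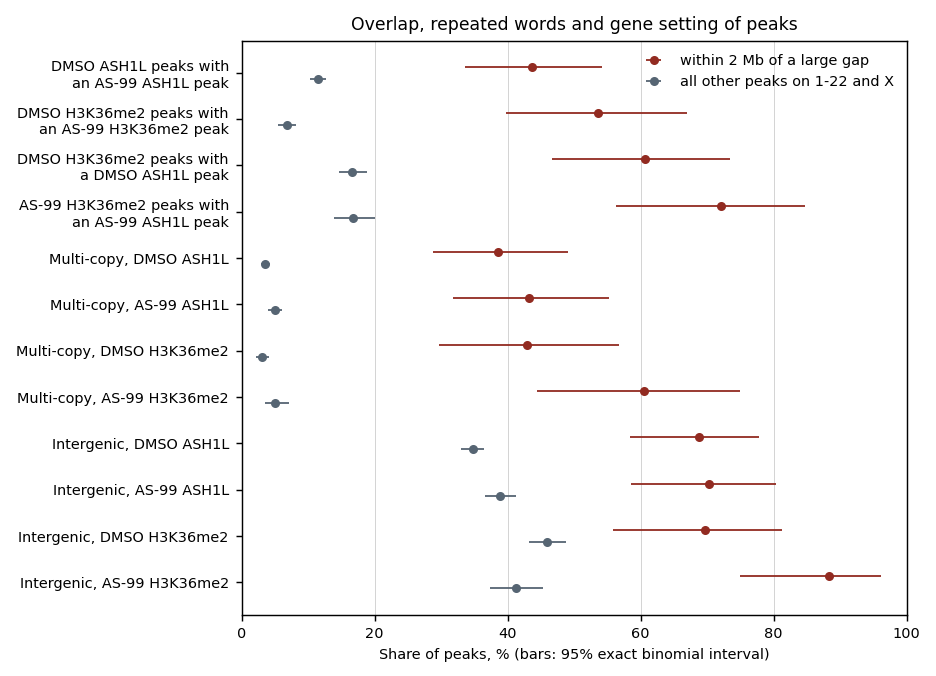
Share of peaks (horizontal axis, %) with a stated property (vertical axis), for peaks within 2 Mb of a large gap and for all other peaks, with exact binomial 95% intervals. The gap-flanking peaks have the higher share in all 12 rows, for example 53.6% against 6.75% for recurrence of H3K36me2 peaks.

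At peaks matched 1 to 1 between treatments, the H3K36me2 signal per fragment was higher in AS-99 beside gaps but not elsewhere. Ratios of matched pairs, here and below, cover only peaks called in both lists. For H3K36me2 these were 30 of 56 gap-flanking and 88 of 1303 other DMSO peaks, and peaks near the threshold can pair only within a limited range of ratios. The median log2 ratio of AS-99 to DMSO was 0.53 over 30 gap-flanking pairs (order-statistic 95% interval 0.32 to 0.68) and −0.08 over 88 other pairs (−0.18 to 0.02). It was above 0 in 27 of 30 and 36 of 88 pairs. A rise of at least 1.5-fold was seen in 12 of 30 pairs against 4 of 88, a difference of 35.5 percentage points (Newcombe 95% interval 18.7 to 53.3), where 13.6% of all pairs passed this limit. A fall of that size was seen in 0 of 30 and 6 of 88 pairs, or 5.08% of all. The 25 pairs in regions of all 4 lists were each above 0, whereas the 5 other pairs had a median of −0.02. The 12 rises of at least 1.5-fold lay on chromosomes 16, 10 and 2, with neighbouring peaks counted as separate pairs. Without chromosome 16 the median was 0.38 over 21 pairs (0.05 to 0.53). The 8 pairs under 30 fragments in DMSO had a median of 0.38 (−0.16 to 0.82).

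For ASH1L the 2 sets of peaks differed less. The median log2 ratio of AS-99 to DMSO was 0.23 over 42 gap-flanking pairs (0.11 to 0.35) and 0.16 over 341 others (0.12 to 0.23). At least 1.5-fold rises made up 4 of 42 gap-flanking pairs and 13.1% of all, and falls of that size 2 of 42 and 2.87% of all. The intervals of the medians overlapped. With the matched peaks outside the windows as the scale, in place of fragments after filtering, the gap-flanking median was 0.04 for ASH1L (−0.08 to 0.16) and 0.69 for H3K36me2.

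Between antibodies in DMSO, the gap-flanking peaks had less H3K36me2 than ASH1L signal per fragment, with a median log2 ratio of −0.25 over 34 pairs (−0.53 to −0.07), while the others had a median of 0.41 over 217 pairs (0.33 to 0.46). This came from the 25 regions of all 4 lists, with a median of −0.45 (−0.66 to −0.21), whereas the other 9 gap-flanking pairs had 0.26 (−0.25 to 0.33), and so did the 9 pairs under 30 fragments. At least 1.5-fold higher H3K36me2 was seen in 0 of 34 pairs and 27.1% of all, and at least 1.5-fold lower in 10 of 34 and 6.37% of all. In AS-99 the medians were −0.13 over 31 gap-flanking pairs (−0.34 to −0.04) and 0.06 over 99 others (−0.03 to 0.15), and the 6 gap-flanking pairs outside regions of all 4 lists had 0.29, with 5 of 6 above 0. Without chromosome 16 both intervals included 0, at −0.22 (−0.45 to 0.04) in DMSO and −0.17 (−0.48 to 0.22) in AS-99. With gaps of at least 50 kb, in place of 1 Mb, the medians were 0.028 (−0.14 to 0.25) in DMSO and −0.05 (−0.15 to 0.07) in AS-99. In AS-99 with gaps of at least 1 Mb, H3K36me2 was at least 1.5-fold higher in 0 of 31 gap-flanking pairs (6.92% of all). It was at least 1.5-fold lower in 2 of 31 (4.62% of all). In the 25 regions of all 4 lists, the interval of the ratio lay below 1 in 14 in DMSO (7.17% of all pairs) and in 6 in AS-99 (4.62% of all pairs). Pileups were compared between antibodies only per fragment, and the part of antibody yield in this ratio was not tested.

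The words of these sequences were repeated in the assembly. A peak was called multi-copy when at least 50% of its 31-base words occurred 2 times or more on either strand. This held for 37 of 96 (38.5%), 32 of 74 (43.2%), 24 of 56 (42.9%) and 26 of 43 (60.5%) gap-flanking peaks of the 4 libraries. Among other peaks it held for 3.53%, 5.01%, 3.07% and 5.08%, and among all for 4.62%, 6.57%, 4.71% and 8.83%. The differences were 35.0, 38.2, 39.8 and 55.4 percentage points, and the lowest bound of their Newcombe 95% intervals was 25.9. Over the 4 lists the multi-copy share was 73.0% within 10 kb of a large gap and 8.14% beyond 1000 kb. Since gaps hide further copies, these counts are lower bounds. The mapping settings in the study's methods text name neither an option to report several alignments nor a filter on mapping quality. Bowtie2 by default reports a single alignment of such a read, picked at random among equally good ones. The part of these reads in the pileups was not tested.

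Periodicity was scored as the identity of the 1 kb around a peak with itself about 1 alpha-satellite unit away, with at least 50% called periodic. In the same order this applied to 13, 13, 10 and 10 gap-flanking peaks and to 0, 3, 0 and 0 others, or 0.423%, 0.883%, 0.736% and 1.58% of all. The CENP-B core, searched as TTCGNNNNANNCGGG on both strands, was found in 13, 11, 8 and 8 gap-flanking peaks and in 1, 1, 0 and 1 others, or 0.456%, 0.662%, 0.589% and 1.42% of all. A match of these letters is a description and not a binding site.

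Pentamer-rich peaks, with at least 20% of bases inside GGAAT or its reverse complement, numbered 19, 17, 15 and 15 beside gaps, or 0.618%, 0.938%, 1.1% and 2.37% of all peaks. No other peak reached this limit in any list. These peaks were thus nearly as many in AS-99 as in DMSO, while the lists as a whole were shorter. Gap-flanking peaks were poorer in GC than the others, with medians of 42.9%, 39.8%, 39.4% and 37.2% against 54.0%, 48.2%, 44.4% and 46.4%.

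Some of the taller peaks were called in 1 library only. In DMSO ASH1L these were chr16:46420303-46420552 with 75 fragments and chr8:46845343-46845592 with 53. In AS-99 ASH1L they were chr8:46844589-46844933 with 47 and chr1:144010837-144011164 with 27, and in DMSO H3K36me2 chr8:42658773-42659189 with 32 and chr8:42677926-42678560 with 30. The chromosome 8 peaks of DMSO ASH1L and AS-99 ASH1L did not overlap but lay within 1 kb of each other. In AS-99 H3K36me2 both were pentamer-rich peaks of chromosome 16, at chr16:46397885-46398184 with 109 fragments and chr16:46428936-46429223 with 45. They lay 12.1 and 43.1 kb after the gap, between regions that were called in all 4 lists. Of the 96, 74, 56 and 43 gap-flanking peaks of the 4 libraries, 46, 29, 18 and 7 were found in a single list. These counts were not compared with those of other peaks. A list without a peak is not a measurement of 0, since the lists hold only what passed the threshold.

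Most gap-flanking peaks lay outside protein-coding genes and their promoters. Such peaks are called intergenic here, and genes of other kinds were not considered. Intergenic sequence held 68.8%, 70.3%, 69.6% and 88.4% of the gap-flanking peaks against 34.7%, 38.9%, 46.0% and 41.3% of others, with differences of 34.0, 31.4, 23.7 and 47.1 percentage points whose Newcombe 95% intervals lay above 0. The windows contained 434 protein-coding genes, and 61 of them had a gap-flanking peak in their body or within 1 kb of their start in at least 1 list. This share of 14.1% was within counting error of the 16.7% of other genes with a peak (difference −2.68 percentage points, Newcombe 95% interval −5.68 to 0.94). By list the numbers were 35 in DMSO ASH1L, 23 in AS-99 ASH1L, 18 in DMSO H3K36me2 and 3 in AS-99 H3K36me2. In that order these were 8.06%, 5.30%, 4.15% and 0.69% of the window genes. Among other genes, 10.5%, 5.67%, 3.37% and 1.89% had a peak. The Newcombe 95% interval of each difference included 0. Of the 61 genes, 14 had gap-flanking peaks in 2 or more lists and 2 had them in all 4, not always at the same place. These counts were not compared with those of other genes.

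SPIDR, on chromosome 8, whose product acts in homologous recombination, had intronic peaks in 7 regions, with highest pileups of 21 in DMSO ASH1L, 18 in AS-99 ASH1L, 19 in DMSO H3K36me2 and 21 in AS-99 H3K36me2. These values do not come from 1 shared site, since the DMSO H3K36me2 peak, at chr8:48512958-48513264, overlapped no peak of the other lists. The unnamed gene ENSG00000285382 on chromosome 20 had peaks at separate places, with 22 fragments in DMSO ASH1L and 24 in AS-99 ASH1L at a promoter peak shared with C20orf203, and 25 in DMSO H3K36me2 and 19 in AS-99 H3K36me2 in an intron. In AS-99 H3K36me2 these levels lay below the gap-flanking median of 49 fragments and above the 14 of other peaks. KAT6A, a histone acetyltransferase of the MYST family, had an intronic peak with 25 fragments in both DMSO lists and none called in AS-99. NOTCH2, a Notch receptor with partial copies on the same chromosome, had intronic H3K36me2 peaks with 18 fragments in DMSO and 15 in AS-99 and no ASH1L peak.

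The other genes with peaks in 2 lists were low. CRYL1, encoding lambda-crystallin, had 20 and 17 fragments in an intron in DMSO ASH1L and AS-99 ASH1L, ABHD12, a lysophosphatidylserine lipase, had 19 and 15, and DST, which encodes the cytoskeletal linker dystonin, had 17 and 16. SPAG5, which encodes a protein of the mitotic spindle, shared a promoter peak of 13 and 10 fragments with RSKR and ENSG00000258472. APMAP had 15 fragments at its promoter in DMSO ASH1L and 13 in an intron in DMSO H3K36me2. ENSG00000266202 had 25 in AS-99 ASH1L and 18 in DMSO H3K36me2 in 1 region, and ENSG00000283201 had 14 and 16 in 2 separate regions.

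Few genes of the families known to have spread beside centromeres had a peak, and few lay in the windows. None of the 7 POTE genes, 4 FAM27 genes, 2 ANKRD30 genes, 2 TPTE genes and 1 NBPF gene in the windows had a peak in any list. Of 30 zinc finger genes with ZNF symbols, ZNF724 had a peak in DMSO H3K36me2 and ZNF487 in AS-99 ASH1L. NOTCH2, the single gene of its family in the windows, had peaks as given above. Over all genes of the windows the share was 14.1%. The windows contained no gene of the ANKRD20A, BAGE, FRG and GGT families.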

How the data were processed

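The data were 4 peak lists, 1 per CUT&RUN library of MV4;11 cells, grouped by the labels. Reads were mapped with Bowtie2 to hg19 by the authors, per the study's methods text. Per the file headers, peaks were called in each library separately with MACS 2.1.0.20150731 on paired-end fragments, at a q-value threshold of 0.01, with at most 2 duplicates per position, a 10 kb local background and no control. The methods text names another MACS version, a spike-in, replicates and a slightly higher dose. The headers and labels were followed, no spike-in scaling entered the values, and whether cultures were pooled into a library is not settled by these sources. The deposited signal is the pileup at the summit, which the authors did not scale. The deposited −log10 p-value and −log10 q-value test it against that library's own background with a Poisson model. The deposited fold enrichment divides pileup by background, with 1 added to each, and so is a ratio.

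Here, pileup was scaled to a depth of 1000000 fragments after filtering. Gaps were read from the GRCh37 sequence (chromosome lengths as in hg19) and genes from GENCODE release 44 mapped to GRCh37. Promoters reached 1 kb to both sides of the starts of protein-coding genes. Peaks called intergenic overlapped no such promoter and had their summit outside protein-coding genes. Peaks were shared at an overlap of at least 1 bp and matched 1 to 1 by the largest overlap. Counts had exact conditional binomial, Clopper-Pearson, Newcombe, Poisson or order-statistic 95% intervals, and no p-value was computed, because each group had 1 library. The interval of a ratio of ratios used the normal approximation on the log scale. The scripts ran in Python 3.11.15 with numpy 2.4.6, pandas 2.3.3, scipy 1.17.1 and numba 0.67.0 and were tested on simulated data. The 70 peaks on other sequences were left out. The text names the 12 tallest regions of all 4 lists, the 2 tallest single-list peaks of each list, the peaks at the 2 Mb limit, the 6 chromosomes with most peaks and those with none, genes with peaks in 2 or more lists, and fixed gene families. Members, lists and tests were chosen with earlier results of these data known. Alternatives were other windows, gap lengths, overlaps, scales, thresholds and word definitions.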

Additional observations from a re-analysis of the deposited data

Results flagged for a closer look

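In the region at chr21:9826760-9827567 the treatments differed in opposite directions between the antibodies. The ratio of AS-99 to DMSO was 0.84 for ASH1L and 1.32 for H3K36me2, and the second divided by the first was 1.57 (approximate 95% interval 1.33 to 1.85). The interval covers counting error in 1 library per group.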

How the results depend on the processing

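No paired analysis was possible because a single library stood for each condition. Of 118 alternative values for 16 results, 72 stayed within the error of the main value, 45 did not and 1 changed sign. The changed sign was the DMSO median log2 ratio of H3K36me2 to ASH1L, which was 0.028 with gaps of at least 50 kb. The H3K36me2 peak count ratio also passed to the other side of 1 at −log10 p values from 10 up, with intervals that included 1 before and after. Values are given below in the order ASH1L then H3K36me2 for recurrence, DMSO then AS-99 for the share of H3K36me2 peaks with ASH1L, and the usual order of the 4 libraries for the multi-copy share, as differences in percentage points between gap-flanking and other peaks. At −log10 p values from 10 up, the difference in the share of the list was 2.32 for ASH1L and 11.4 for H3K36me2, the H3K36me2 peak count ratio was 1.18 (39 against 33 peaks), recurrence 47.7 and 76.2, overlap with ASH1L in DMSO 64.1, and multi-copy 52.5, 56.3 and 65.1 in the first 3 libraries. With windows of 1 Mb, recurrence was 45.6 and 71.0, overlap 69.5 and 69.0, and multi-copy 52.0, 52.0, 60.8 and 69.3. With windows of 5 Mb, recurrence was 15.2 and 25.6, overlap 21.4 and 32.1, and multi-copy 14.8, 16.9, 21.4 and 35.2. With gaps of at least 50 kb, the H3K36me2 count ratio was 0.49, recurrence 4.84 and 11.3, overlap 15.2 and 25.2, and multi-copy 4.84, 9.88, 13.1 and 24.8. With peaks under 30 fragments only, recurrence was 9.96 and 19.8 and overlap 20.1 and 37.02. With at least 10 copies per word, multi-copy was 11.8, 12.05, 9.26 and 20.7. With the scale set by matched peaks outside the windows, the median log2 ratio of AS-99 to DMSO was 0.041 for ASH1L and 0.69 for H3K36me2, and that of H3K36me2 to ASH1L in DMSO was −0.66. Wider windows and shorter gaps add peaks farther from the large gaps by construction, and the causes of the other shifts were not tested. Leaving out chromosome 16, a reciprocal overlap of 50%, a distance of 1 kb for sharing, words of 24 bases, scaling by total fragments, counts per fragment and leaving out the regions of all 4 lists kept all results computed with them within the error, but without chromosome 16 the intervals of both medians of H3K36me2 to ASH1L included 0 (−0.22 in DMSO and −0.17 in AS-99). Without the regions of all 4 lists, the H3K36me2 difference in the share of the list was 0.70, with an interval that included 0 (−0.78 to 2.57). It was 0.87 with gaps of at least 50 kb (−2.66 to 4.61), while the ASH1L difference was 1.68 with windows of 5 Mb (0.13 to 3.31). Pileups of 10 to 30 fragments limited most single regions.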
